A study of Mus musculus with 6 samples.

Results

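The dual-specificity phosphatases, Sprouty proteins and Spred proteins that restrain the ERK kinase pathway were followed in lung group 2 innate lymphoid cells (ILC2s). The 10 genes Dusp1, Dusp2, Dusp4, Dusp5, Dusp6, Dusp10, Spry1, Spry2, Spred1 and Spred2 were taken by name from the 17438 genes of the deposited count table, and all 10 of 10 were present. No threshold on measured values entered the rule. The libraries came from ILC2s sorted from mouse lung, treated with the alarm cytokine IL-33 and cultured, with 10 pg of RNA used for each. A total of 3 libraries came from wild-type mice (WT1, WT2 and WT3), given as strain CB57BL/6. The other 3 (KO1, KO2 and KO3) came from the line B6.129S4-Cd48tm1Rsr/EpaulJ, which carries a targeted Cd48 allele whose name records a 129S4 origin. Both groups received IL-33, so no library shows the genes without it, and the labels give no ages, no duration of treatment and no statement that the libraries came from separate animals. P-values therefore measure the spread between these libraries, which may be partly technical. Effects of Cd48 itself and of donor-strain DNA around it cannot be told apart in this design.

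Receptor signals activate RAS, which starts the RAF, MEK and ERK kinase relay, and active ERK induces several of its own inhibitors. DUSP proteins remove phosphate from the activation loop of MAP kinases: DUSP6 acts on ERK in the cytoplasm, DUSP5 on ERK in the nucleus, DUSP1, DUSP2 and DUSP4 are inducible nuclear enzymes, and DUSP10 prefers p38 and JNK. Sprouty proteins and Spred proteins act further up, between the receptor and RAF, and Spred proteins recruit the RAS inhibitor neurofibromin to the membrane. In ILC2s, IL-33 signals through its receptor ST2 to NF-kB and the MAP kinases, and transcripts of this feedback loop are widely used as readouts of ERK activity.

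The sequences upstream of 3 members are shown because these genes head the order of levels described further on. Windows of 250 bases before the start were read from the RefSeq promoter table (GRCm38.p6), which matched 9 of the 10 genes. Dusp6 (chr10:99262981-99263230, plus strand), Dusp5 (chr19:53528895-53529144, plus strand) and Dusp1 (chr17:26508473-26508722, minus strand) are printed 5′ to 3′ on the strand of the gene, with matches to the searched motifs in capitals.
Dusp6: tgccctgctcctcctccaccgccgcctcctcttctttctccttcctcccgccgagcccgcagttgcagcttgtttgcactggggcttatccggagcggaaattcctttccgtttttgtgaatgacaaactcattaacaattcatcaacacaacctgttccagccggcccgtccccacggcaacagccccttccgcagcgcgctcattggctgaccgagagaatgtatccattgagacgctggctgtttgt
Dusp5: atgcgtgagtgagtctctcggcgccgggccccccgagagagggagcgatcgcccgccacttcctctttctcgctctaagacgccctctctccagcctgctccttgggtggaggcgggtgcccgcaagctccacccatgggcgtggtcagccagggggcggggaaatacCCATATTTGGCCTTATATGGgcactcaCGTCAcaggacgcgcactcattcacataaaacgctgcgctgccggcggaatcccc
Dusp1: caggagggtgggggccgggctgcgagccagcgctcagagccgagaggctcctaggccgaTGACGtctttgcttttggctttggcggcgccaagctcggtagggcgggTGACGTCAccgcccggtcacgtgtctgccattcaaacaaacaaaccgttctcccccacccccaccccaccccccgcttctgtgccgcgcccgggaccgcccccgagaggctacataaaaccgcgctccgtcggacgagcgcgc

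The motifs searched on both strands were the cAMP response element TGACGTCA, its shorter form TGACG, the AP-1 site TGANTCA, the ETS site CCGGAAGT, and the CArG box that binds serum response factor. The shorter form is contained in TGACGTCA, so their matches overlap. In the Dusp5 window a CArG box lay 82 to 73 bases before the start and another lay directly beside it at 72 to 63 bases, followed by the shorter cAMP response form, on the opposite strand, at 55 to 51 bases. CArG boxes were found in 1 of the 9 member windows and in 1.47% of all 32851 windows of this length. The Dusp1 window held TGACGTCA at 143 to 136 bases before the start and a separate TGACG at 191 to 187 bases. TGACGTCA occurred in 1 of 9 member windows and 1.55% of all windows, and TGACG in 3 of 9 (Dusp1, Dusp5 and Spred2) and 17.8%. None of the 9 windows held TGANTCA (6.75% of all windows) or CCGGAAGT (2.88%), and no searched motif was found in the Dusp6 window. These are matches of letters, not measured binding.

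Library totals ran from 14928623 to 27450400 counts. Levels are given as CPM, counts scaled to library size with the TMM factors of edgeR, which adjust each size for its composition. The targeted gene was first used to check the labels. Cd48 stood at 58.2, 46.6 and 41.6 CPM in WT1 to WT3, against 4.52, 5.59 and 4.40 CPM in KO1 to KO3, so the groups did not overlap. For Cd48 the log2 fold change was -3.33 (SE 0.20; adjusted p 0.00285 by edgeR's quasi-likelihood test). All 13 ILC2 markers of the list (among them Gata3, Il1rl1, Il5 and Il13) were above 1 CPM in every library. The library WT1 stood apart from the other 5: its correlations of log2 CPM over genes were 0.922 to 0.932, against 0.980 to 0.988 for pairs without it. Its distance from WT2 and WT3 moved with transcript length, with a median log2 difference of 0.03 for genes of 2000 to 4000 bases and -0.91 for genes of at least 8000 bases. The genotype comparison of each member is therefore given with all 6 libraries and again without WT1 (2 WT against 3 KO). For Cd48, the fit without WT1 gave -3.18 with an edgeR adjusted p of 3.52e-07. Of the 13 ILC2 markers, that fit called 2 higher in KO and 0 lower, against 1.17% and 0.652% of tested genes. These were Il2ra (log2 fold change 0.31, edgeR adjusted p 0.0200) and Il5 (0.29, edgeR adjusted p 0.0332).

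Summed markers of other cells differed between genotypes for some cell types and overlapped for others. All 7 epithelial markers had a lower mean in KO, with sums of 31.4 to 72.8 CPM in WT and 10.0 to 23.8 CPM in KO, and Krt8 was at 0 in every KO library. Epcam was called lower in KO without WT1 (log2 fold change -0.83, SE 0.18, edgeR adjusted p 0.0347). Of 8 T cell markers 4 were in the table, with sums of 28.7 to 43.5 CPM in WT and 16.9 to 19.6 CPM in KO. Most of each sum was Cd3g, at 41.0, 28.2 and 22.9 CPM in WT1 to WT3 and 13.6, 12.9 and 13.9 CPM in KO1 to KO3. Cd3g was called lower in KO without WT1 (log2 fold change -0.92, SE 0.14, edgeR adjusted p 0.00690). Cd3e was also lower in KO (mean 1.14 against 2.41 CPM in WT). Cd28 went the other way (mean 3.23 CPM in KO against 1.81 CPM in WT), and Cd3d was at most 0.574 CPM. Of 8 macrophage and dendritic cell markers 7 were in the table, and Mrc1 was at 0 in KO. Their sums overlapped only through WT1, at 9.01 CPM. WT2 and WT3 stood at 23.6 and 29.3 CPM, against 6.49 to 14.6 CPM in KO. The summed NK and ILC1 list was higher in KO: 2 of its 6 genes were in the table, with sums of 0.610 to 0.734 CPM in WT and 0.960 to 3.42 CPM in KO. Nearly all of the KO sum was the granzyme gene Gzmb, which was called higher in KO without WT1 (log2 fold change 4.62, SE 0.97, edgeR adjusted p 0.0401). Gzmb had 9, 3 and 0 counts in WT1 to WT3, against 53, 29 and 17 counts in KO1 to KO3. The other gene, Prf1, had a lower mean in KO (0.164 against 0.381 CPM in WT). The defining NK marker Ncr1 is not among these 2 genes. The B cell sums overlapped, at 14.1 to 20.0 CPM in WT and 12.2 to 17.2 CPM in KO. Of 5 B cell markers 2 were in the table, and Cd79a was at most 0.279 CPM, so the sum was nearly all Cd79b. The mast cell and basophil sums overlapped too, at 114 to 281 and 272 to 275 CPM. Of those 5 markers 2 were in the table, and Cpa3 was at most 1.47 CPM, so the sum was nearly all Kit. So did the endothelial sums, at 29.1 to 40.2 and 40.1 to 41.9 CPM. There 2 of 5 markers were in the table, and Vwf was at most 0.564 CPM, so the sum was nearly all Pecam1. Neutrophil and fibroblast sums were under 1 CPM in every library. The part of these other cells in the results on the feedback genes was not tested. In bulk RNA, fewer cells of a type and less RNA per cell cannot be told apart.

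Across all libraries, Dusp6 was the most abundant member per length by a wide margin. Its level was 104.8 ± 19.7 CPM per kb of longest transcript (SD over 6 libraries), higher than that of 94.3% of tested genes. Dusp5 followed at 17.7 ± 6.09 and Dusp1 at 15.01 ± 3.33 CPM per kb. The lowest Dusp6 library (76.5 CPM per kb) was above the highest Dusp5 library (25.8 CPM per kb), so these neighbours did not overlap. Below Dusp1 came Dusp4 (10.4 ± 1.08 CPM per kb), Spry1 (9.33 ± 3.93), Spred2 (3.25 ± 0.525), Dusp10 (2.38 ± 0.579), Spred1 (1.60 ± 1.505), Spry2 (0.949 ± 0.739) and Dusp2 (0.418 ± 0.262), each over 6 libraries. Without WT1 the means were 110.5 CPM per kb for Dusp6, 0.995 for Spred1, 0.651 for Spry2 and 0.329 for Dusp2, and the order of the 10 means did not change. Over all 6 libraries, the other neighbours in this order whose ranges did not overlap were Spry1 and Spred2. Without WT1, Dusp4 and Spry1, and Dusp10 and Spred1, did not overlap either. Within libraries the order was steadier than the ranges show: Dusp1 was above Dusp4, Spred2 above Dusp10 and Spry2 above Dusp2 in 6 of 6 libraries, whereas Dusp5 was above Dusp1 in 4 of 6. The longest annotated transcript need not be the one expressed in these cells, which limits comparisons per length.

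**Figure D1:**
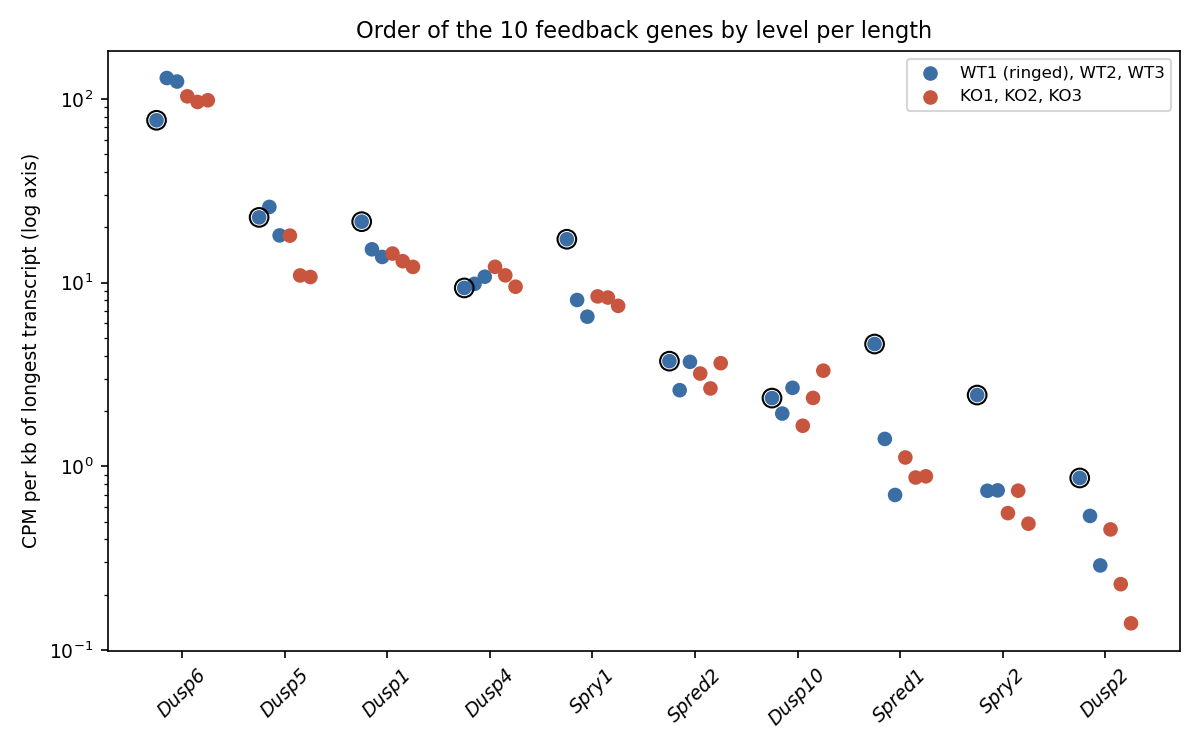
Level of each member in CPM per kb of its longest transcript, on a log axis, with 1 point for each library (blue WT, red KO, WT1 ringed) and genes ordered by their mean. Dusp6 sits above all other members in every library, and WT1 is the highest point for Dusp1, Spry1, Spred1, Spry2, Dusp2 and, narrowly, Spred2.

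With all 6 libraries, 0 of the 10 genes passed the edgeR test at an adjusted p under 0.05, against 4 of 13317 tested genes (0.03%, of which 0.015% were lower and 0.015% higher in KO). By the unadjusted p under 0.05, 1 member passed (Dusp5) against 6.89% of tested genes. DESeq2 and limma-voom, with or without sample quality weights, also called 0 members. The log2 fold change was below 0 for 8 of the 10 members and for 50.5% of tested genes, with a member median of -0.37 against -0.00 over all tested genes. Without WT1, 1 member was called, Dusp6, which was lower in KO. The background there was 248 of 13643 tested genes (1.82%, with 0.652% lower and 1.17% higher in KO), and 13.7% of tested genes against 1 member had an unadjusted p under 0.05. The member median was then -0.12 against 0.00 over all tested genes, and 7 of 10 members were below 0 against 49.8% of tested genes.

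Dusp6, the cytoplasmic ERK phosphatase, was the 1 feedback gene called, and its call turned on WT1. The gene lies at chr10:99263231-99267489 on the plus strand (GRCm38), has 3 exons and overlaps no other annotated gene. It stood at 214.0, 363.4 and 347.8 CPM in WT1 to WT3, against 288.8, 269.1 and 275.0 CPM in KO1 to KO3. WT2 and WT3 were above all KO libraries, and WT1 was below them all. With all 6 libraries the WT mean was 308.4 ± 82.1 CPM against a KO mean of 277.6 ± 10.1 CPM (SD, n = 3). The fitted log2 fold change was -0.15 (SE 0.20, 95% interval -0.64 to 0.34), with an edgeR adjusted p of 0.782. Without WT1 the WT mean was 355.6 ± 11.0 CPM (SD, n = 2), and in KO the fitted level fell by 21.8%. That log2 fold change was -0.35 (SE 0.06, 95% interval -0.48 to -0.23) with an edgeR adjusted p of 0.00886.

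The Dusp6 fall without WT1 kept its direction in 15 of 15 other settings without WT1 and was called in 12 of them, with adjusted p from 3.21e-05 (DESeq2) to 0.0680 (edgeR). The edgeR adjusted p was 0.0680 when WT2 was also left out, to 0.0616 without KO2 and to 0.0559 without KO3, with log2 fold changes of -0.33, -0.34 and -0.36. On all 6 libraries, limma-voom with sample quality weights, which gave WT1 a weight of 0.0919 against 1.08 to 2.36 for the others, estimated -0.35 with an adjusted p of 0.0853. Epithelial marker sums in the same libraries were 72.8 and 69.3 CPM in WT2 and WT3 and 10.0 to 23.8 CPM in KO. T cell marker sums were 33.4 and 28.7 CPM in WT2 and WT3 and 16.9 to 19.6 CPM in KO. WT1, with the lowest Dusp6, had 31.4 and 43.5 CPM of these sums. Macrophage and dendritic cell marker sums were 23.6 and 29.3 CPM in WT2 and WT3, 6.49 to 14.6 CPM in KO and 9.01 CPM in WT1. Whether any of these sums bears on Dusp6 was not tested.

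**Figure D2:**
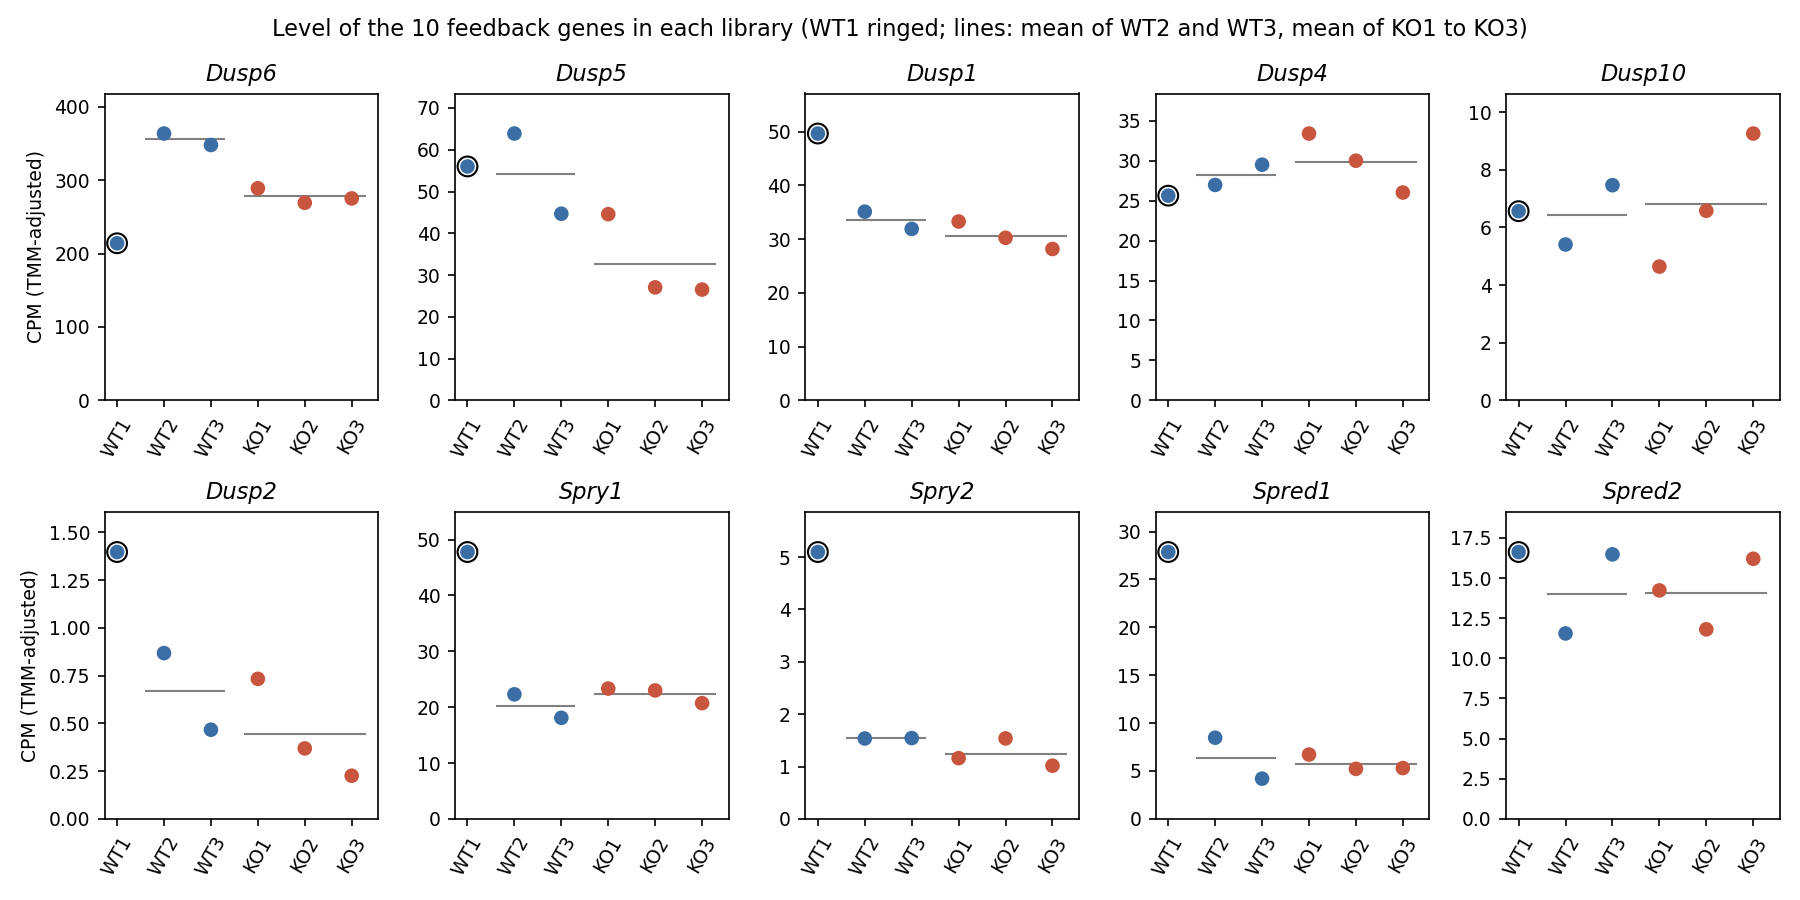
CPM of each member in each library, with 1 panel for each gene and axes from 0 (blue WT, red KO, WT1 ringed), and lines for the mean of WT2 and WT3 and the mean of KO1 to KO3. For Dusp6, WT2 and WT3 are above and WT1 is below the 3 KO libraries, and for Spry1, Spry2 and Spred1 WT1 is far above the other 5.

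Dusp5, the nuclear ERK phosphatase, had the clearest order of libraries but did not pass the test over all genes. It lies at chr19:53529109-53542431 on the plus strand, and an unnamed antisense gene model (AC137853.2) overlaps it on the other strand, so their reads cannot be separated with certainty. Its level was 56.0, 63.9 and 44.7 CPM in WT1 to WT3, against 44.6, 27.1 and 26.5 CPM in KO1 to KO3. Every KO library was below every WT library, but KO1 was almost level with WT3, and KO2 and KO3 were well below. Such a separation, KO lower, was seen for 1 of 10 members and for 9.11% of tested genes, and the opposite separation for 0 members and 10.2%. The WT mean was 54.9 ± 9.65 CPM against a KO mean of 32.7 ± 10.3 CPM (SD, n = 3). The fitted log2 fold change was -0.74 (SE 0.25, 95% interval -1.34 to -0.15), with an edgeR adjusted p of 0.690.

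Leaving out WT1 hardly moved the Dusp5 estimate. Its log2 fold change was then -0.72 (SE 0.29, 95% interval -1.46 to 0.01) with an edgeR adjusted p of 0.376. Without WT1 the KO libraries were below both WT libraries for 2 of 10 members, Dusp5 and Dusp6, and for 14.3% of tested genes, and above them for 0 members and 15.8%. KO1 was 0.73 above the mean of KO2 and KO3 in log2 CPM for Dusp5, and 6.24% of tested genes had a larger distance of KO1 in either direction. With both WT1 and KO1 left out, the log2 fold change of Dusp5 was -1.002 with an edgeR adjusted p of 0.0129. As KO1 was the highest KO library for Dusp5, leaving it out had to enlarge the fall, so this call is no separate support. That fit called 517 of 13532 tested genes, and Dusp5 was called in 2 of 15 other settings without WT1.

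The other inducible nuclear phosphatases showed no called difference. Dusp1, an immediate early gene and broad MAP kinase phosphatase, was at 49.6, 35.1 and 31.9 CPM in WT1 to WT3, against 33.3, 30.2 and 28.2 CPM in KO1 to KO3. WT1 was the highest library, and the other 5 overlapped. The log2 fold change was -0.35 (SE 0.20, 95% interval -0.81 to 0.12) with all libraries and -0.13 (SE 0.12, 95% interval -0.38 to 0.12) without WT1, with edgeR adjusted p of 0.690 and 0.707. Dusp1 (chr17:26505590-26562128, minus strand) shares its annotated span with other annotated genes on both strands, including Ergic1. The promoter window printed above (chr17:26508473-26508722) lies inside this span, so most of the span is upstream of the start used for that window. Where in the span the other genes lie was not tested. Whether their reads were counted with those of Dusp1 was not tested either.

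Dusp4, which acts on ERK and JNK in the nucleus, was the steadiest member, its highest library standing at 1.303 times its lowest. It was at 25.6, 26.97 and 29.5 CPM in WT1 to WT3, against 33.4, 30.0 and 26.0 CPM in KO1 to KO3. The groups overlapped, and WT1 lay beside the other libraries. The log2 fold change was 0.12 (SE 0.15, 95% interval -0.23 to 0.48) with all libraries and 0.08 (SE 0.13, 95% interval -0.20 to 0.36) without WT1, with edgeR adjusted p of 0.763 and 0.859. Dusp2, a phosphatase of activated lymphoid cells, was near the limit of detection, with 20, 13 and 13 counts in WT1 to WT3, against 12, 6 and 4 counts in KO1 to KO3. Its log2 fold change was -1.002 (SE 0.64, 95% interval -2.52 to 0.52, edgeR adjusted p 0.693) with all libraries. Without WT1 it was -0.54 (SE 0.68, 95% interval -2.02 to 0.93, edgeR adjusted p 0.802), and the groups overlapped in both cases.

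Dusp10, the p38 and JNK phosphatase, varied more within KO than between genotypes. Its level was 6.56, 5.41 and 7.47 CPM in WT1 to WT3, against 4.64, 6.58 and 9.26 CPM in KO1 to KO3. KO1 was the lowest and KO3 the highest of all libraries. The log2 fold change was 0.07 (SE 0.29) with all libraries and 0.08 (SE 0.29) without WT1, with edgeR adjusted p of 0.925 and 0.948. Dusp10 is the only member on the chromosome of Cd48, at a distance of 12.3 Mb (chr1:184013302-184075636, plus strand), and an antisense transcript (1700056E22Rik) overlaps it.

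**Figure D3:**
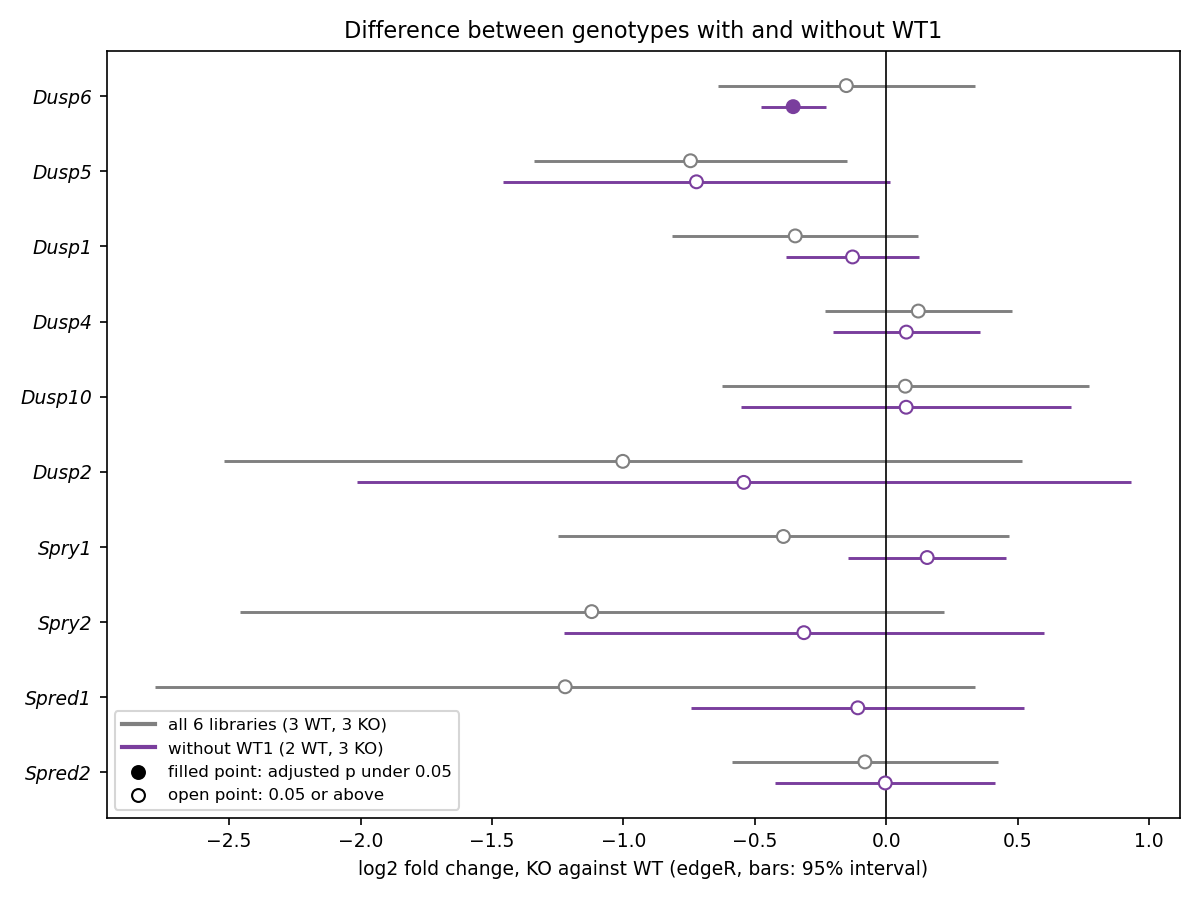
Log2 fold change of each member, KO against WT, from edgeR with 95% intervals, for all 6 libraries (grey) and without WT1 (purple), with filled points where the adjusted p is under 0.05. The 1 filled point is Dusp6 without WT1 at -0.35, and the intervals of Spry1, Spry2 and Spred1 are narrower without WT1.

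Among the Sprouty and Spred genes, which restrain signalling between receptor and RAF, WT1 was far above the other libraries for Spry1, Spry2 and Spred1 but not for Spred2. Spry1 (chr3:37639947-37644598, plus strand) was at 47.8, 22.3 and 18.1 CPM in WT1 to WT3, against 23.3, 23.0 and 20.7 CPM in KO1 to KO3. Another annotated gene (Gm42922) overlaps Spry1 on the opposite strand. WT1 alone was high, and the other 5 libraries lay between 18.1 and 23.3 CPM. The log2 fold change of Spry1 was -0.39 (SE 0.36, edgeR adjusted p 0.715) with all libraries and 0.16 (SE 0.14, 95% interval -0.15 to 0.46, edgeR adjusted p 0.7003) without WT1, so its sign turned on that library.

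Spry2 (chr14:105891947-105896819, minus strand) was low, at 5.10, 1.54 and 1.54 CPM in WT1 to WT3, against 1.16, 1.54 and 1.02 CPM in KO1 to KO3. WT1 was again the only high library. Counts were 73 in WT1 and 18 to 43 elsewhere. Its log2 fold change was -1.12 (SE 0.56, edgeR adjusted p 0.690) with all libraries and -0.31 (SE 0.42, edgeR adjusted p 0.816) without WT1. Both Sprouty genes are annotated with 1 coding exon, against 3 to 7 in the other members.

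Spred1 (chr2:117121374-117182279, plus strand) had the largest ratio of highest to lowest library among the 10 genes (6.63), at 27.9, 8.48 and 4.20 CPM in WT1 to WT3, against 6.72, 5.23 and 5.31 CPM in KO1 to KO3. WT1 was the highest library, and WT3 was the lowest of all, so the WT libraries bracketed the KO libraries. For Spred1 the log2 fold change was -1.22 (SE 0.65, edgeR adjusted p 0.690) with all libraries and -0.11 (SE 0.29, edgeR adjusted p 0.923) without WT1. Spred2 (chr11:19924375-20024026, plus strand) was at 16.6, 11.5 and 16.5 CPM in WT1 to WT3, against 14.2, 11.8 and 16.2 CPM in KO1 to KO3. Its groups overlapped throughout, with log2 fold changes of -0.08 (SE 0.21) and -0.00 (SE 0.19, 95% interval -0.42 to 0.42) with and without WT1 and edgeR adjusted p of 0.886 and 0.997.

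The distance of WT1 from WT2 and WT3 differed in direction among the members. In log2 CPM, WT1 was higher by 2.20 for Spred1, 1.66 for Spry2, 1.25 for Spry1, 1.003 for Dusp2 and 0.57 for Dusp1, and lower for Dusp6, at -0.73. Dusp5, Dusp10, Dusp4 and Spred2 were within 0.27 of WT2 and WT3. As CPM, WT1 held 4.40 times the mean of WT2 and WT3 for Spred1, 3.31 times for Spry2, 2.37 times for Spry1 and 0.602 times for Dusp6. Such distances were common in WT1: 5.22% of tested genes lay farther from WT2 and WT3 than Spred1, 9.03% farther than Spry2, 15.3% farther than Spry1 and 34.4% farther than Dusp6. A distance over 1 was seen in 4 of 10 members and in 22.4% of tested genes. Spred1, high in WT1, has the longest transcript of the members (6016 bases), in the class of 4000 to 8000 bases whose median was -0.41. Dusp6, low in WT1, has 2796 bases, in the class whose median was 0.03. With a trend of each library on transcript length in the fit of all 6 libraries, the log2 fold change of Dusp6 was -0.14, against -0.15 without the trend.

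**Figure D4:**
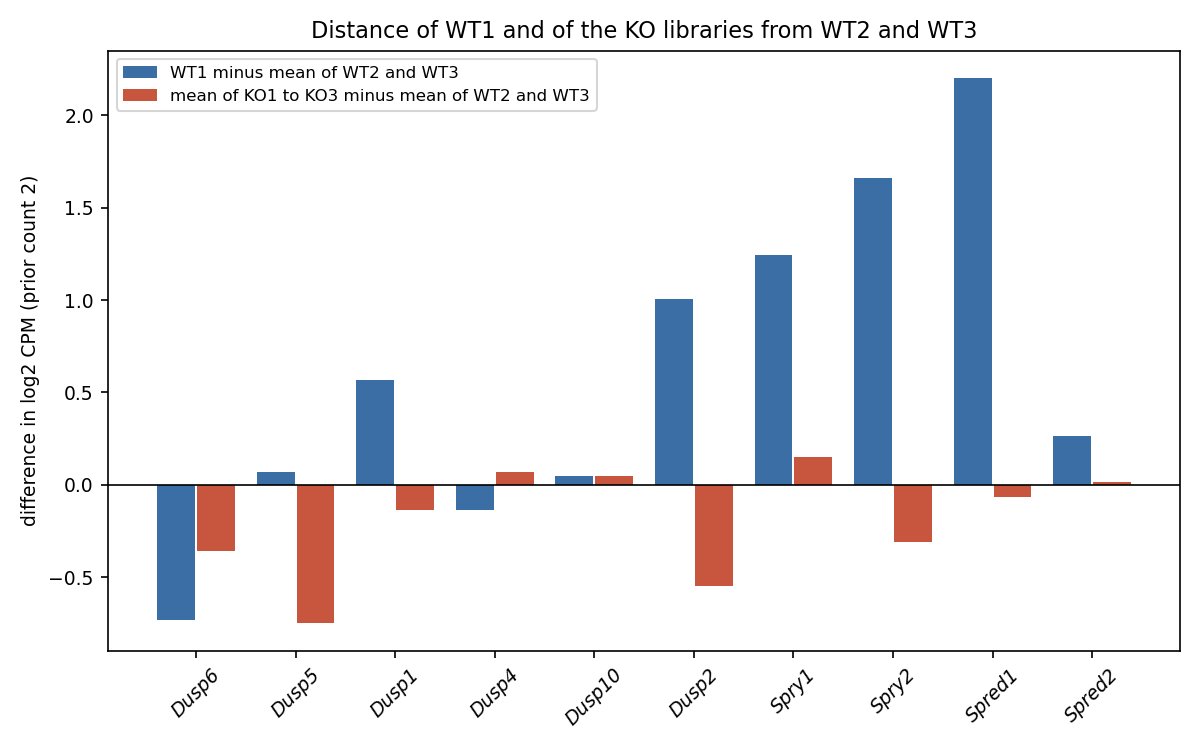
Difference in log2 CPM from the mean of WT2 and WT3, for WT1 (blue) and for the mean of the 3 KO libraries (red), for each member, with bars from 0. WT1 stands 1.25 to 2.20 above for Spry1, Spry2 and Spred1 and 0.73 below for Dusp6, and for these genes its distance exceeds that of the KO mean.

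The makeup of the family within a library changed with WT1 more than with genotype. Dusp6 made up 47.5% of the summed CPM per kb of the 10 genes for WT1, 66.3% for WT2, 68.5% for WT3, and 63.3%, 65.8% and 67.0% for KO1 to KO3. Its share in KO2 and KO3 thus lay next to that in WT2, although its level was lower. The 4 Sprouty and Spred genes together made up 17.4% for WT1, 6.52% for WT2, 6.42% for WT3, and 8.13%, 8.58% and 8.51% for KO1 to KO3. The sum itself was 161 CPM per kb for WT1, 196 for WT2, 182 for WT3, and 163, 146 and 147 for KO1 to KO3, so WT2 and WT3 had the highest sums. These sums follow Dusp6 and are no separate result.

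Genes whose pattern over the 6 libraries was nearest to that of Dusp6 were sought among 8675 genes averaging 10 CPM or more, by the root mean square difference of centred log2 CPM. The nearest were Retreg2 (0.05), Pex5 (0.05) and Ctdsp2 (0.06), against a median of 0.33. Retreg2 was at 73.2, 120.1 and 120.5 CPM in WT1 to WT3, against 95.5, 87.6 and 85.3 CPM in KO1 to KO3. As for Dusp6, WT2 and WT3 were high and WT1 was below all KO libraries. A difference under 0.2 from Dusp6 was found for 12.6% of these genes, and all points share the same 6 libraries. That limit is loose, as Dusp4, the steadiest member, was at 0.25. Genes near Dusp6 were thus not rare, but how many share the full size of its pattern was not counted.

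The rest of the pathway was taken from lists of its parts. Of 11 other DUSP, Sprouty and Spred genes 9 were in the table and tested, and 0 passed edgeR over all genes in either direction, with or without WT1, with median log2 fold changes of 0.26 and 0.11. Dusp7, a cytoplasmic ERK phosphatase like Dusp6, was the most abundant of them at 44.6, 25.3 and 16.4 CPM in WT1 to WT3, against 18.6, 11.7 and 9.60 CPM in KO1 to KO3. Its libraries overlapped only through KO1, which was above WT3. For Dusp7 the log2 fold change was -1.11 (SE 0.42, edgeR adjusted p 0.690) with all libraries and -0.64 (SE 0.30, edgeR adjusted p 0.430) without WT1. Dusp22, a small phosphatase that acts on JNK signalling, was at 12.6, 14.95 and 10.8 CPM in WT1 to WT3, against 20.3, 16.8 and 17.3 CPM in KO1 to KO3. Each KO library was above each WT library, with a log2 fold change of 0.51 in both fits and edgeR adjusted p of 0.690 and 0.192. A separation in this direction was seen for 10.2% of tested genes with all 6 libraries.

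Of the 23 genes of the RAS and ERK relay itself, 0 passed in either direction with or without WT1, and the medians were -0.01 and 0.03. Nras, a RAS protein, was at 307 CPM in WT1 and between 164 and 187 CPM in the other 5 libraries, with log2 fold changes of -0.27 and 0.10 with and without WT1 (edgeR adjusted p 0.718 and 0.616).

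Of 17 genes of the p38 and JNK arm 16 were tested. With all libraries 0 passed, and without WT1 1 rose and 0 fell, with medians of 0.06 and 0.07. Over all tested genes without WT1, 1.17% were called higher and 0.652% lower in KO. The called gene was Map3k8, which encodes TPL2, the kinase that links NF-kB signalling to MEK and ERK in myeloid and lymphoid cells. It was placed in this list, so the count of 0 for the RAS and ERK relay depends on that placement. Map3k8 was at 126, 65.8 and 57.4 CPM in WT1 to WT3, against 81.8, 92.3 and 79.4 CPM in KO1 to KO3. WT2 and WT3 were below every KO library, and WT1 was above them all. Its log2 fold change was 0.02 (SE 0.30, edgeR adjusted p 0.977) with all libraries and 0.46 (SE 0.10, edgeR adjusted p 0.0326) without WT1. The adjusted p of Map3k8 ranged from 0.00373 to 0.217 over the 15 other settings without WT1 (edgeR, DESeq2 and limma-voom), of which 10 called it. Mapkapk3 and Map2k3, the most abundant genes of this list, were at 0.22 and 0.12 (log2 fold change, all libraries) and at 0.14 and 0.00 without WT1, none called.

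Of 18 genes known to respond to ERK, 17 were tested and 0 passed in either direction with or without WT1, with medians of -0.04 and -0.00. Myc, a growth regulator, was at 148, 102 and 100.2 CPM in WT1 to WT3, against 114, 81.0 and 102 CPM in KO1 to KO3. WT1 was high and the other libraries overlapped, with log2 fold changes of -0.24 and -0.03 with and without WT1 (edgeR adjusted p 0.710 and 0.960). Ier2, an immediate early gene, was at 141, 104 and 104 CPM in WT1 to WT3, against 88.5, 87.5 and 93.8 CPM in KO1 to KO3. Each KO library was below each WT library, with log2 fold changes of -0.37 (SE 0.15, edgeR adjusted p 0.690) and -0.20 (SE 0.08, edgeR adjusted p 0.249) with and without WT1. With all 6 libraries, 9.11% of tested genes were separated in this direction.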

How the data were processed

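RNA of sorted, IL-33-treated lung ILC2s was measured in 3 WT and 3 Cd48 KO libraries, grouped by their labels; the series' design text speaks of duplicates, and 3 samples of each genotype are used here. Per the submitters' processing notes, the mm10 build, Partek 10.0, STAR 2.7.8 and DESeq2 were used, with no role stated. The counter, annotation and strand setting are all not given in the sources used here. Values deposited by the authors are estimated counts, judged from the values (60.2% of non-zero values whole within 0.001, lowest gene total 10), and these were rounded before testing. Per the labels' protocols, cDNA came from 10 pg of RNA, so counts are not independent molecules.

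Genes kept by filterByExpr (minimum count 10, minimum total 15) were fitted over the whole table with edgeR 4.0.16 in R 4.3.3 (robust quasi-likelihood, TMM, genotype only), with Benjamini-Hochberg adjustment over all tested genes and calls at an adjusted p under 0.05. Log2 CPM for distances used a prior count of 2. Replicates differed beyond sampling noise. The members, gene lists, rules and alternatives, including the fit without WT1, were chosen with earlier results of these data known. All 10 members are named, with called genes and the 2 most abundant of each other list, of which 1 gene is not reported here, and the 3 genes most like the most abundant member. Alternatives were other size factors and filters, DESeq2 1.42.0, limma-voom (limma 3.58.1), a fit that was not robust, an adjusted p of 0.1, the replicate number as a block, a transcript length trend (lowess span 0.3) and each library left out. Positions and lengths come from GRCm38 by symbol (17022 genes, 97.6%). The fit was tested on simulated counts.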

Additional observations from a re-analysis of the deposited data

How the results depend on the processing

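Depth limits Dusp2 and Spry2 most. With all 6 libraries, edgeR called 4 genes; DESeq2 called 108, limma-voom with sample quality weights 95 and the replicate block 0 (776 at an unadjusted p under 0.05). Leaving out 1 library gave 0 to 248 genes: 248 without WT1, and 0 without KO1 (662 at an unadjusted p under 0.05) or KO3 (335). Members called were 0 in every setting with all 6 libraries and 0 to 1 with 1 library left out, the 1 being Dusp6 without WT1. Without WT1, 1 member was called, 2 with the replicate block, and 0 to 2 with a further library left out: 0 without WT2, KO2 or KO3, and 2 without KO1. The second member in both cases was Dusp5, with -0.99 and an edgeR adjusted p of 0.0137 under the block. Those 2 settings also called more genes: 570 of 13643 with the block and 517 of 13532 without KO1, against 248 of 13643 without WT1 alone. Fewer were called without KO2 (73 of 13538) or KO3 (65 of 13457). The block and the loss of KO1 also brought Dusp7 (-0.94 and -0.95, edgeR adjusted p 0.0239 and 0.0441) past the threshold. Same-numbered libraries did not deviate together (r -0.05, -0.04 and -0.01 over genes), so the numbers were not taken as pairs. Map3k8 lost its call without the robust step (edgeR adjusted p 0.0612) and with WT2, WT3, KO2 or KO3 also left out (0.0574, 0.217, 0.169 and 0.0929).

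Signs turned in 29 of the recomputed values, all of uncalled log2 fold changes, and the cause was not tested. With 1 of the 6 libraries left out, the log2 fold change ran from -0.21 (without KO3) to 0.29 for Dusp10, with -0.038 without WT2, from -0.65 to 0.16 (without WT1) for Spry1, and from -0.23 to 0.032 (without KO2) for Spred2, with 0.0024 without WT3. It ran from -0.42 to 0.096 (without WT1) for Nras, and from -0.18 (without WT3) to 0.46 (without WT1) for Map3k8, with -0.12 without WT2 and -0.043 without KO2. Quality weights gave 0.11 for Spry1 and 0.080 for Nras. With WT1 and a further library left out, the log2 fold change ran from -0.0078 (KO1) to 0.16 for Dusp4, from -0.22 (KO3) to 0.34 for Dusp10, with -0.13 for WT2, and from -0.00064 (WT3) to 0.30 for Spry1. It ran from -0.56 to 0.45 (WT2) for Spred1, from -0.23 to 0.28 (WT3) for Spred2, with 0.11 for KO2, from -0.051 (WT3) to 0.040 for Map2k3, with -0.015 for KO3, and from -0.13 (KO1) to 0.096 (KO2) for Myc. Without WT1, the block gave -0.010 for Dusp4 and 0.0090 for Spred2, and Spred1 was 0.063 with limma-voom and 0.041 with quality weights. Map2k3 was -0.0028 with RLE size factors, -0.00087 with upper quartile factors, -0.0030 under the filter on mean CPM and -0.0025 with DESeq2. With the sign kept, 8 recomputed values gained a call and 8 lost one. The remaining 535 kept their direction and their side of the threshold.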
